A study of Mus musculus with 16 samples.

Results

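Solute carriers that were expressed in bone marrow-derived dendritic cells (BMDCs) were read in RNA-seq of 4 genotypes with and without a STING ligand. The members were genes with a symbol of Slc and a number whose highest FPKM over the 8 conditions was at least 5, and Slc2a1, Slc19a1, Slc7a2, Slc7a11, Slc40a1, Slc11a1, Slc11a2, Slc39a14 and Slc30a1 were left out by name. FPKM is the number of fragments per kilobase of transcript, scaled to all mapped fragments, so that levels can be compared between genes. Of 369 Slc genes in a table of 23356 genes, 136 were members, 9 were left out by name and 224 stayed under 5 FPKM. The members were thus chosen by their level, and the level itself is a description. BMDCs were grown from mouse bone marrow for 6 days with GM-CSF and IL-4, each at 10 ng/ml, and the floating and loosely attached cells were collected. They came from wild-type C57BL/6 mice, from Tmem173-/- mice, which lack STING, the receptor of cyclic dinucleotides, from Irf1-/- mice, and from Irf3/7-/- mice, which lack both IRF3 and IRF7. All knockouts were of the whole animal, so that cells other than BMDCs and their precursors also carried them. BMDCs of each genotype were left untreated or were treated for 18 h with c-di-GMP, a bacterial cyclic dinucleotide, at 25 µg/ml according to the sample labels, while the study text gives a higher dose. The labels list 16 samples, 2 for each of the 8 conditions, and do not give the age of the mice.

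Solute carriers are membrane proteins that move nutrients, metals, ions and metabolites across the plasma membrane and the membranes of organelles. Most use the gradient of the substrate or of a second ion, and they are numbered by families of related sequence. In dendritic cells they supply glucose and amino acids to activated cells, export lactate, move zinc, copper and iron, and empty the products of digestion from endosomes and lysosomes. The mitochondrial carriers, with the number 25, exchange metabolites between mitochondria and cytosol, and many of those with the number 35, but not all, carry nucleotide sugars into the Golgi and endoplasmic reticulum. A symbol does not always name a carrier. Slc9a3r1 encodes a scaffold protein that binds an exchanger, and Slc4a1ap and Slc7a6os are likewise not carriers themselves. All 3 met the rule and were kept.

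The authors combined both samples of each condition into a single FPKM with an interval, so no spread between samples and no p-value could be given. The farther bound of a member's interval lay at a median of 25.9% to 27.3% of its FPKM away, depending on the condition. Depth cannot be read from FPKM. A gene was tested where either of the conditions reached 1 FPKM, and was called where log2(FPKM + 0.1) differed by more than 1 and the authors' intervals did not overlap. Below, "rose", "fell", "higher" and "lower" with a count refer to this call, and log2 values are differences on the log2(FPKM + 0.1) scale, which understates the change of low genes. All 136 members had the status OK in all 8 conditions.

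The targeted genes were read first. Tmem173 stood at 8.97 and 7.49 FPKM in untreated and treated Tmem173-/- BMDCs, while the other conditions ranged from 77.0 to 118 FPKM. Irf1 stood at 25.9 and 116 FPKM in untreated and treated Irf1-/- BMDCs, and the wild-type values were 149 and 245 FPKM. It was also low in untreated and treated Tmem173-/- BMDCs, at 24.1 and 23.3 FPKM, and stood at 164 and 262 FPKM in Irf3/7-/- BMDCs. Irf7 stood at 1.07 and 4.97 FPKM in untreated and treated Irf3/7-/- BMDCs, and the wild-type values were 15.2 and 687 FPKM. Its values were 3.17 and 3.37 FPKM in untreated and treated Tmem173-/- and 6.22 and 969 FPKM in Irf1-/- BMDCs. Irf3 stood at 7.74 FPKM in untreated but at 20.2 FPKM in treated Irf3/7-/- BMDCs, where the wild-type values were 19.9 and 15.8 FPKM, so the Irf3 value of the treated cells goes against the label and the treated Irf3/7-/- condition is named below only as it is labelled. An FPKM covers the whole gene, and reads outside a deleted part count in it.

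The conditions differed in genes of other cell types. Dendritic cell genes such as Itgax, Cd74 and H2-Ab1 were high in all 8 conditions, and the summed FPKM of 12 dendritic cell genes lay between 5279 and 9860, although Flt3 and Cd209a stood at 3.10 FPKM or less. The summed FPKM of 9 neutrophil genes was 20047 and 14564 in untreated and treated Tmem173-/- BMDCs, while the other 6 conditions ranged from 1431 to 4092. Most of this sum came from S100a8 and S100a9, at 10351 and 8336 FPKM in untreated Tmem173-/- BMDCs. Summed T and NK cell genes, 10 in all, were at 1.11 and 0.995 FPKM in untreated and treated Tmem173-/-, 20.2 and 30.8 in Irf1-/-, 734 and 710 in wild-type and 764 and 2300 in Irf3/7-/- BMDCs. Of these genes, Gzma was listed at 0 in both Tmem173-/- conditions. In the other genotypes most of the sum came from Gzma and Gzmb. They stood at 349 and 321 FPKM in untreated wild-type and at 900 and 1242 FPKM in treated Irf3/7-/- BMDCs. Cd3e stood at 9.18 and 23.3 FPKM in the same conditions. Summed macrophage genes, 9 in all, were highest in Tmem173-/- BMDCs, at 424 and 412 FPKM against 55.5 to 194 elsewhere, and 4 eosinophil genes summed to 802 and 776 FPKM in wild-type against 194 to 578 FPKM in the knockouts. The 7 basophil and mast cell genes summed to 170 and 262 FPKM in Irf3/7-/- and to 59.6 to 93.6 FPKM in the other genotypes. The 6 erythroid genes, nearly all from Hbb-b1, summed to 10.3 FPKM in untreated and 35.9 FPKM in treated wild-type BMDCs, 9.32 and 81.7 FPKM in Irf1-/-, 5.62 and 72.5 FPKM in Irf3/7-/- and 1.54 and 1.52 FPKM in Tmem173-/- BMDCs, and the 5 B cell genes to 3.34 to 10.7 FPKM in all conditions. In such mixed cultures, fewer cells of a type and less RNA per cell cannot be told apart. The part of these cells in the differences between genotypes was not tested.

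The carriers of the mitochondrial inner membrane had the highest levels. Slc25a5, the adenine nucleotide translocator ANT2, reached 740 FPKM, the phosphate carrier Slc25a3 reached 352 FPKM and the translocator Slc25a4 reached 261 FPKM, each in an untreated knockout. Close copies of Slc25a4 and Slc25a5 exist in the genome, and how the counting treated reads that fit several copies is unknown here. Next in level came Slc15a3, a peptide and histidine transporter of lysosomes, at 232 FPKM, then Slc3a2, the CD98 heavy chain that carries several amino acid transporters to the cell surface, at 193 FPKM, and Slc2a6, a hexose transporter of lysosomes, at 168 FPKM. Slc30a4, which loads zinc into vesicles, reached 119 FPKM, Slc9a3r1 reached 116 FPKM, the lactate exporter Slc16a3 reached 114 FPKM and the heme transporter Slc48a1 reached 112 FPKM. These were the 10 highest, and 79 members never reached 20 FPKM.

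Most members were not called. Of 136, 99 had at least 5 FPKM in all 8 conditions, 66 had a maximum of less than 2 times their minimum, 28 of less than 1.5 times, and 84 were called in none of the 10 comparisons. These counts were not made over all genes, so they do not set the members apart. In the wild-type response, 2291 of 11201 genes tested were called over the whole table, so most genes were not called there either. The steadiest was Slc38a10, between 28.8 and 32.7 FPKM, followed by the lysosomal sialic acid exporter Slc17a5, between 4.90 and 5.59 FPKM, and the peroxisomal carrier Slc25a17, between 22.6 and 26.3 FPKM. At the other end, 15 members had a maximum of over 5 times their minimum. Slc28a3, a concentrative nucleoside transporter, spanned 0.113 to 5.00 FPKM, the zinc importer Slc39a2 0.741 to 27.8 FPKM, and the nucleoside transporter Slc28a2 0.169 to 5.17 FPKM. At the threshold, Slc28a3, Slc28a2 and the organic cation transporter family member Slc22a18, at 5.29 FPKM, were just inside, while Slc9a7, at 4.94 FPKM, Slc35e4, at 4.88 FPKM, and Slc35g1, at 4.83 FPKM, were just outside. Slc22a4, Slc22a18, Slc25a43, Slc28a2, Slc28a3, Slc39a8 and Slc6a4 were members through 1 condition only, so that a part of their variation came with the choice.

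To see which carriers respond to STING ligation, treated wild-type BMDCs were compared with untreated ones. Of 136 members tested, 17 rose (12.5%) and 12 fell (8.82%), while 10.5% of all genes tested were called higher and 9.96% lower. The median log2 change was 0.03 over the members and 0.00 over all genes, so the members as a list were close to the background. Individual carriers moved far. The zinc importer Slc39a2 had the largest rise, of 4.44 on the log2 scale, followed by Slc6a12, a betaine and GABA transporter, at 2.74, the serotonin transporter Slc6a4 at 2.64 and Slc28a2 at 2.46. The largest falls were those of Slc28a3, at -3.07, the lactate and pyruvate transporter Slc16a1, at -2.74, the zinc importer Slc39a10, at -2.66, and Slc25a24, a mitochondrial ATP-Mg and phosphate carrier, at -1.94. Slc28a2 and Slc28a3, both in the counts above, were members only through treated and untreated wild-type BMDCs, in this order. A part of their changes thus came with the choice of members. Summed neutrophil genes fell from 4092 to 1914 FPKM and macrophage genes from 184 to 122 FPKM over the same comparison, and 3 neutrophil and 4 macrophage genes were called lower and 1 macrophage gene higher. The neutrophil genes Ngp and Camp went up without a call, from 93.4 to 104 FPKM and from 18.8 to 37.0 FPKM. Among the other lists, 1 dendritic cell and 1 erythroid gene were higher. There, 1 T and NK cell, 1 basophil and mast cell and 1 eosinophil gene were lower. Their part in the result was not tested.

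**Figure D1:**
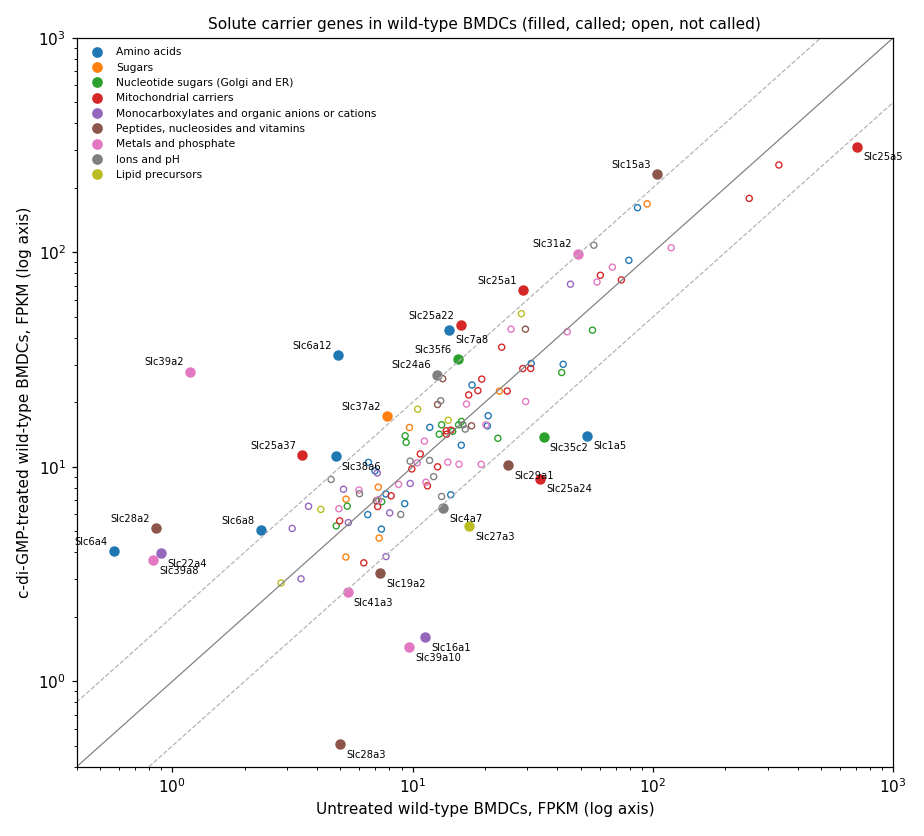
FPKM of the 136 solute carrier genes in untreated (x axis) and c-di-GMP-treated (y axis) wild-type BMDCs, both on log axes, coloured by transport class. Filled points are the 29 called genes, the solid line marks equal levels and dashed lines a factor of 2. Slc39a2 lies farthest above the lines and Slc28a3, a member only through untreated wild-type BMDCs, farthest below.

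In the absence of STING no member was called. In Tmem173-/- BMDCs, 133 members were tested, and by the fold change alone the count was also 0. Over all genes, 0.046% were called higher and 0.0092% lower. The most extreme members were Slc44a1, at 0.81, and Slc22a18, at -0.61. In Irf1-/- BMDCs, 12 of 136 members rose and 7 fell, beside 9.67% and 7.81% of all genes. In Irf3/7-/- BMDCs, 13 of 136 rose and 11 fell, beside 10.2% and 7.68% of all genes. In the Irf3/7-/- response, summed T and NK cell genes went from 764 to 2300 FPKM, with 3 called higher and 1 lower, and 3 macrophage genes were lower and 1 higher. In the same response, 1 neutrophil gene was lower, and 1 dendritic cell and 1 erythroid gene were higher. In the Irf1-/- response, 2 neutrophil genes and 1 macrophage, 1 dendritic cell, 1 B cell and 1 eosinophil gene were lower. Higher in it were 2 dendritic cell genes and 1 macrophage, 1 erythroid and 1 basophil and mast cell gene. Their part was not tested. The median log2 change of the members was -0.01 in Irf1-/- and 0.01 in Irf3/7-/- BMDCs, against 0.00 over all genes in both.

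Many of the same carriers moved in the 3 genotypes that responded, which share no condition with each other. Both wild-type and Irf1-/- BMDCs raised 9 members, which are 52.9% of the wild-type and 75.0% of the Irf1-/- list, and lowered 6, out of 12 and 7 lowered members. Both wild-type and Irf3/7-/- BMDCs raised 10 members, 58.8% and 76.9% of their lists, and lowered 9, 75.0% and 81.8%. The response of the members correlated between wild-type and Irf1-/- BMDCs at r = 0.87, between wild-type and Irf3/7-/- at r = 0.87 and between the knockouts at r = 0.74, across 136 genes that were each read from the same libraries and are not independent replicates. The same value between wild-type and Tmem173-/- BMDCs was r = -0.14. Overlaps and correlations were not computed over all genes, so whether the shared response is particular to the carriers was not tested. Slc39a2, Slc6a12, Slc6a4, Slc28a2, Slc22a4, Slc7a8, Slc25a22 and Slc25a1 rose in all 3 genotypes, and Slc16a1, Slc39a10, Slc1a5, Slc29a1 and Slc35c2 fell in all 3. For the 17 members that rose in wild-type BMDCs, the change in Irf1-/- BMDCs was a median of 79.7% of the wild-type log2 change, with a range from -32.3% for Slc25a37 to 164% for Slc39a8. In Irf3/7-/- BMDCs the median was 76.4%, from 43.1% for Slc6a4 to 147% for Slc22a4, and in Tmem173-/- BMDCs it was -5.03%. For the 12 that fell, the medians were 80.1% in Irf1-/-, 77.0% in Irf3/7-/- and 3.55% in Tmem173-/- BMDCs. These members were chosen by their wild-type response, so a share below the full wild-type change is partly set by that choice. Slc39a8 and Slc22a4 were members only through treated Irf1-/- and treated Irf3/7-/- BMDCs, in this order. The upper ends of these ranges thus came partly with the choice of members.

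**Figure D2:**
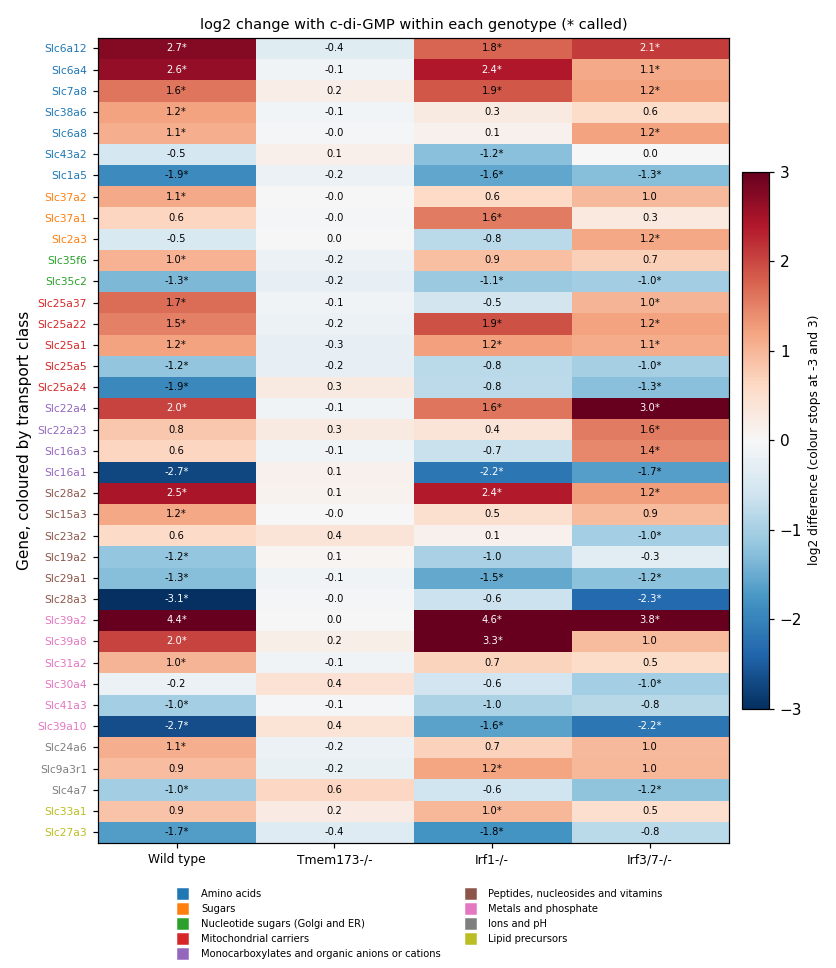
Difference of log2(FPKM + 0.1) between treated and untreated BMDCs within each genotype, for the 38 solute carrier genes called in at least 1 genotype, with called values starred and gene names coloured by transport class. The Tmem173-/- column holds no called value, and 13 genes were called in the same direction in the other 3 genotypes.

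Zinc carriers were among the members with the largest changes. Slc39a2 (ZIP2; chr14:51893610-51896745) stood at 1.19 FPKM (interval 0.733 to 1.64) in untreated and 27.8 FPKM (20.3 to 35.2) in treated wild-type BMDCs, at 0.741 and 20.2 FPKM in Irf1-/-, at 1.11 and 17 FPKM in Irf3/7-/-, and at 2.04 and 2.05 FPKM in Tmem173-/- BMDCs. The 3 treated responders were thus well above all other conditions, and their intervals overlapped with none of them. Slc39a10 (ZIP10; chr1:46807544-46853509), an importer of the same family, moved the other way, from 9.68 (7.27 to 12) to 1.45 FPKM (1.04 to 1.84) in wild-type, from 10.3 to 3.33 FPKM in Irf1-/-, from 10.5 to 2.24 FPKM in Irf3/7-/-, and from 6.35 to 8.43 FPKM without a call in Tmem173-/- BMDCs. Slc39a8 (ZIP8), which imports zinc and manganese, rose from 0.833 to 3.69 FPKM in wild-type and from 0.736 to 8.25 FPKM in Irf1-/- BMDCs, while it went from 0.631 to 1.32 FPKM in Irf3/7-/-, a log2 change of 0.96 that was not called, and from 0.524 to 0.608 FPKM in Tmem173-/- BMDCs. Its treated level was called higher in Irf1-/- (log2 1.14) and lower in Irf3/7-/- BMDCs (log2 -1.41) than in treated wild-type BMDCs. Slc39a8 was a member only through treated Irf1-/- BMDCs, so its high level there came partly with the choice of members.

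The other members of the metal class included 23 genes in all with Slc39a2, Slc39a10 and Slc39a8, of which 3 rose and 2 fell in wild-type BMDCs. Over all genes tested, 10.5% rose and 9.96% fell. Slc30a4 (ZnT4; chr2:122681239-122702663) separated the genotypes before treatment. It stood at 119 FPKM (84.7 to 153) in untreated wild-type, 83.7 FPKM in Irf1-/- and 110 FPKM in Irf3/7-/-, but at 14.8 FPKM (11.3 to 18.2) in Tmem173-/- BMDCs, and at 105, 56.4, 54.7 and 19.9 FPKM after treatment in the same order. Both Tmem173-/- conditions lay below all others, and only the Irf3/7-/- response was called, at -1.01. The copper transporter Slc31a2 rose from 48.9 to 98.7 FPKM in wild-type BMDCs, and Slc31a1, the main copper importer, went from 25.7 to 43.8 FPKM without a call. After treatment Slc31a1 was lower in Tmem173-/- (19.1 FPKM) and Irf1-/- (20.5 FPKM) than in wild-type BMDCs. Slc41a3, of a family of magnesium transporters, fell from 5.37 to 2.60 FPKM. The heme transporter Slc48a1, from 58.5 to 112 FPKM, and the zinc importers Slc39a1, from 66.1 to 85.3 FPKM, and Slc39a7, from 36.9 to 51.5 FPKM over the 8 conditions, were not called in any comparison.

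Amino acid and related transporters counted 22 members, of which 5 rose and 1 fell in wild-type BMDCs, beside 10.5% and 9.96% of all genes tested. Slc6a12 (chr6:121346697-121365773) went from 4.88 FPKM (3.46 to 6.28) to 33.3 FPKM (24.2 to 42.1) in wild-type, from 2.71 to 9.37 FPKM in Irf1-/- and from 4.14 to 18.0 FPKM in Irf3/7-/- BMDCs, and stood at 15.9 and 12.4 FPKM in Tmem173-/- BMDCs. It rose in the 3 responders, and untreated Tmem173-/- BMDCs already had more of it than untreated wild-type BMDCs (log2 1.69). Slc7a8, the LAT2 light chain for neutral amino acids, rose from 14.2 to 43.7 FPKM in wild-type, from 9.12 to 33.7 FPKM in Irf1-/- and from 17.6 to 40.8 FPKM in Irf3/7-/-, and stood at 16.8 and 19.3 FPKM in Tmem173-/- BMDCs. Its partner Slc3a2 went from 86.3 FPKM (63.8 to 109) to 161 FPKM (124 to 199) in wild-type and from 97.1 to 193 FPKM in Irf3/7-/- BMDCs, with log2 changes of 0.90 and 0.99 that stayed under the fold threshold. Slc7a5, the LAT1 light chain, was between 25.4 and 55.9 FPKM and was not called in any comparison.

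The glutamine transporter Slc1a5 (ASCT2; chr7:16781346-16798274) was the amino acid carrier that fell. It stood at 53.1 FPKM (38.5 to 67.8) in untreated and 14.0 FPKM (9.99 to 17.9) in treated wild-type BMDCs, at 63.6 and 21.6 FPKM in Irf1-/-, at 56.0 and 23.2 FPKM in Irf3/7-/-, and at 69.5 and 62.0 FPKM in Tmem173-/- BMDCs. The treated responders were below all 5 other conditions. Slc6a4 rose in wild-type BMDCs from 0.570 to 4.07 FPKM, and stood at 3.82 and 3.57 FPKM in Tmem173-/- BMDCs. Its untreated level was higher there than in wild-type BMDCs (log2 2.55). The creatine transporter Slc6a8 rose in wild-type (2.35 to 5.07 FPKM) and Irf3/7-/- (4.0 to 9.29 FPKM) but was at 5.56 and 6.12 FPKM in Irf1-/- BMDCs. Slc38a6 rose in wild-type BMDCs (4.78 to 11.2 FPKM) and was called in no other response. Slc43a2, a transporter of large neutral amino acids, stood at 19.5 and 21.5 FPKM in Tmem173-/- BMDCs and between 2.73 and 7.42 FPKM elsewhere, and fell in Irf1-/- BMDCs only among the responses called (log2 -1.25). The taurine transporter Slc6a6 (69.4 to 110 FPKM) and the lysosomal transporter Slc36a1 (4.88 to 12.1 FPKM) were not called in any comparison.

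Of the 27 mitochondrial carriers, 3 rose and 2 fell in wild-type BMDCs, beside 10.5% and 9.96% of all genes tested. Slc25a22 (chr7:141429749-141437874), a glutamate carrier, stood at 15.9 FPKM (12.1 to 19.6) in untreated and 45.7 FPKM (35.5 to 56) in treated wild-type BMDCs, at 14.7 and 55.7 FPKM in Irf1-/-, at 16.4 and 37.8 FPKM in Irf3/7-/-, and at 11 and 9.76 FPKM in Tmem173-/- BMDCs. Slc25a1, which exports citrate, went from 28.8 to 66.6 FPKM, from 25.5 to 60.3 FPKM, from 27.5 to 59.8 FPKM and from 28.2 to 23.7 FPKM in the same order. Both rose by more than 2-fold in the 3 responders, whose treated intervals lay above those of all other conditions. Slc25a5 (chrX:36795652-36798806) fell from 708 FPKM (482 to 872) to 311 FPKM (211 to 380) in wild-type and from 721 to 360 FPKM in Irf3/7-/- BMDCs, while 740 and 425 FPKM in Irf1-/- and 700 and 593 FPKM in Tmem173-/- BMDCs were not called. The Irf3/7-/- value, a log2 change of -1.0, lay at the threshold. Slc25a4 and Slc25a3 did not pass it in any comparison.

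Slc25a37 (mitoferrin 1; chr14:69241851-69285103), which brings iron into mitochondria, differed between the genotypes. It rose from 3.48 FPKM (2.46 to 4.45) to 11.3 FPKM (8.31 to 14.2) in wild-type and from 5.01 to 10.3 FPKM in Irf3/7-/-, but stood at 3.86 and 2.62 FPKM in Irf1-/- and at 7.89 and 7.31 FPKM in Tmem173-/- BMDCs. Its level in treated Irf1-/- was called lower than in treated wild-type BMDCs (log2 -2.07), the largest such fall among the members. Slc25a24 fell from 34.1 to 8.81 FPKM in wild-type and from 38.8 to 16.1 FPKM in Irf3/7-/- BMDCs, and went from 45.6 to 26.6 FPKM without a call in Irf1-/- and from 36.9 to 44.4 FPKM in Tmem173-/- BMDCs. Among carriers of the tricarboxylic acid cycle, the dicarboxylate carrier Slc25a10 (8.66 to 15.7 FPKM) and the oxoglutarate and malate carrier Slc25a11 (56.0 to 78.2 FPKM) were called in no comparison.

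The carriers of lactate were Slc16a1 and Slc16a3. Slc16a1 (MCT1; chr3:104638668-104658462) stood at 11.3 FPKM (7.79 to 13.9) in untreated and 1.61 FPKM (1.09 to 2.12) in treated wild-type BMDCs, at 11.9 and 2.57 FPKM in Irf1-/-, at 11.3 and 3.52 FPKM in Irf3/7-/-, and at 8.27 and 9.02 FPKM in Tmem173-/- BMDCs. It fell in the 3 responders. Slc16a3 (MCT4; chr11:120948484-120959000), the exporter of lactate, stood at 45.4 FPKM (32.8 to 58.1) and 71.1 FPKM (54.0 to 88.0) in wild-type BMDCs, at 38.6 and 24.4 FPKM in Irf1-/-, at 42.0 and 114 FPKM in Irf3/7-/-, and at 47 and 43.6 FPKM in Tmem173-/- BMDCs. Only the Irf3/7-/- response of Slc16a3 was called (log2 1.44), and treated Irf1-/- BMDCs were called lower than treated wild-type BMDCs (log2 -1.54). The untreated levels of Slc16a3 had overlapping intervals in all 4 genotypes. The remaining 10 of the 12 members of this class included Slc22a4, a carrier of the antioxidant ergothioneine, which rose from 0.899 to 3.96 FPKM in wild-type, from 0.965 to 3.16 FPKM in Irf1-/- and from 1.21 to 10.3 FPKM in Irf3/7-/-, and stood at 3.86 and 3.59 FPKM in Tmem173-/- BMDCs. Slc22a4 was a member only through treated Irf3/7-/- BMDCs. Slc22a23 rose only in Irf3/7-/- BMDCs among the calls, from 3.53 to 10.7 FPKM.

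Among the 10 carriers of peptides, nucleosides and vitamins, 2 rose and 3 fell in wild-type BMDCs, beside 10.5% and 9.96% of all genes tested. Slc15a3 (chr19:10842544-10869779) rose from 104 FPKM (79.2 to 129) to 232 FPKM (178 to 287) in wild-type BMDCs, went from 83.0 to 117 FPKM in Irf1-/- and from 97.5 to 187 FPKM in Irf3/7-/- without a call, and stood at 92.3 and 91.6 FPKM in Tmem173-/- BMDCs. The untreated levels were close and the treated wild-type level was the highest, with an interval that overlapped that of treated Irf3/7-/- but not that of treated Irf1-/- BMDCs. Its relative Slc15a4 was between 12.1 and 19.5 FPKM and was not called. Of the nucleoside carriers, 3 were called in wild-type BMDCs. Slc28a2 rose from 0.860 to 5.17 FPKM. Slc28a3 (chr13:58553308-58610877) fell from 5.00 FPKM (3.74 to 6.26) to 0.509 FPKM (0.331 to 0.680) in wild-type and from 2.47 to 0.409 FPKM in Irf3/7-/-, was at 2.12 and 1.33 FPKM in Irf1-/-, and was near 0 in Tmem173-/- BMDCs, at 0.120 and 0.113 FPKM. Slc28a2 was a member only through treated and Slc28a3 only through untreated wild-type BMDCs. The equilibrative transporter Slc29a1 fell from 24.9 to 10.2 FPKM in wild-type, from 24.8 to 8.47 FPKM in Irf1-/- and from 21.9 to 9.27 FPKM in Irf3/7-/- and stood at 30.4 and 28.1 FPKM in Tmem173-/- BMDCs. The lysosomal nucleoside transporter Slc29a3 went from 13.3 to 25.8 FPKM in wild-type BMDCs, a log2 change of 0.94 that was not called. The thiamine transporter Slc19a2 fell in wild-type BMDCs from 7.34 to 3.21 FPKM, and the vitamin C transporter Slc23a2 fell in Irf3/7-/- BMDCs from 47.5 to 23.2 FPKM.

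**Figure D3:**
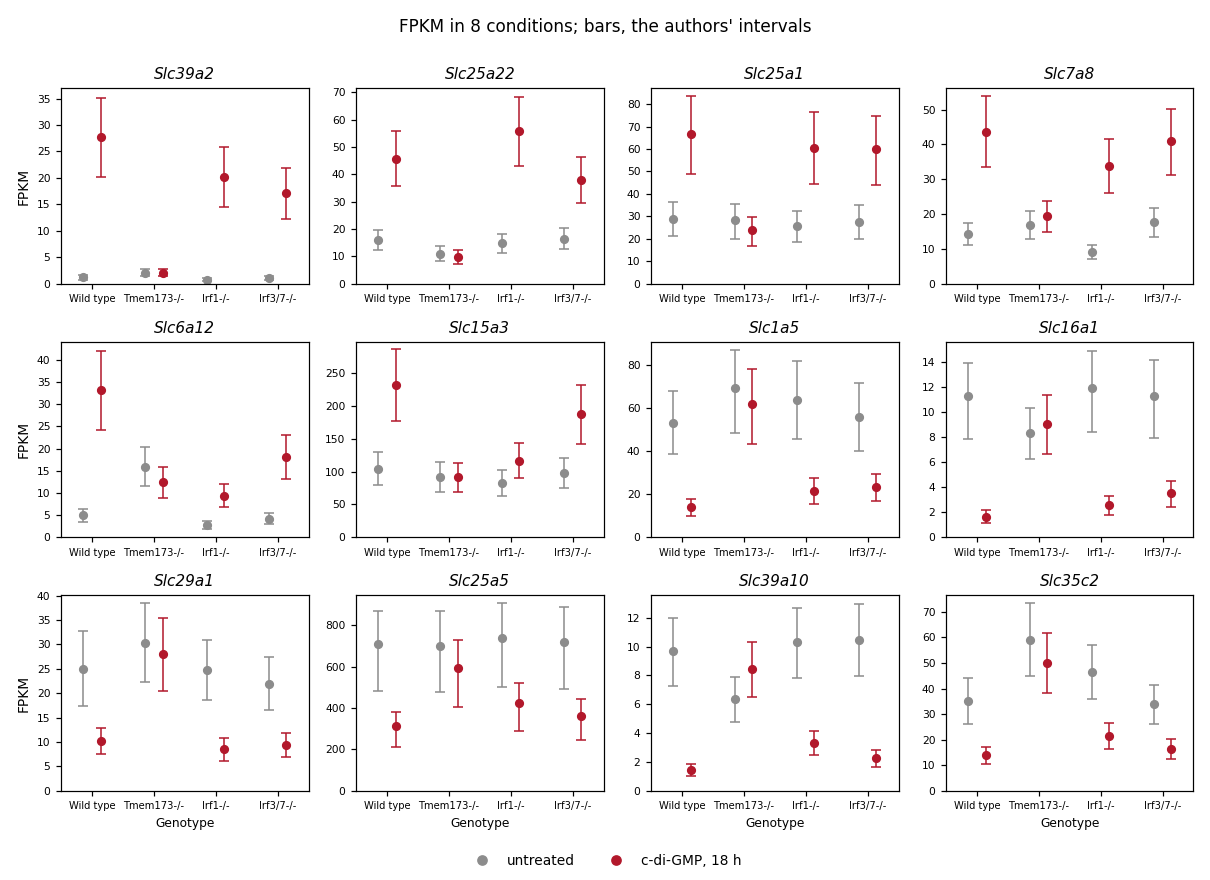
FPKM in the 8 conditions for 12 solute carrier genes, by genotype on the x axis, untreated in grey and treated in red, with bars for the authors' intervals; each y axis starts at 0 and has its own scale. Treated wild-type, Irf1-/- and Irf3/7-/- values moved away from the untreated ones, except for Slc15a3 and Slc25a5 in Irf1-/- BMDCs, whose intervals overlapped, whereas the intervals of both Tmem173-/- conditions overlapped for all 12 genes.

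Of the 8 sugar carriers, 1 rose and none fell in wild-type BMDCs, namely Slc37a2, a sugar-phosphate exchanger of the endoplasmic reticulum, from 7.80 to 17.2 FPKM. Over all genes tested, 10.5% rose and 9.96% fell. Slc2a3, the glucose transporter GLUT3, stood at 5.28 and 3.80 FPKM in wild-type, 7.02 and 7.07 FPKM in Tmem173-/-, 4.80 FPKM (3.51 to 6.05) and 2.70 FPKM (1.92 to 3.48) in Irf1-/-, and 4.86 FPKM (3.56 to 6.15) and 11.1 FPKM (8.21 to 13.9) in Irf3/7-/- BMDCs. The Irf3/7-/- response was called (log2 1.17), and the change in Irf1-/- BMDCs, at -0.81, had the opposite sign and intervals that did not overlap but was below the fold threshold. Slc2a6 went from 94.6 to 168 FPKM in wild-type BMDCs without a call (log2 0.83). Slc37a1 rose in Irf1-/- BMDCs (6.61 to 19.7 FPKM) and was at 4.32 and 4.23 FPKM in Tmem173-/- BMDCs, where both levels were below the wild-type values of 9.71 and 15.3 FPKM. The 15 members with the number 35 were classed as nucleotide sugar carriers by that number alone. Of these, Slc35f6 rose from 15.4 to 31.7 FPKM and Slc35c2 fell from 35.1 FPKM (26.3 to 44) to 13.8 FPKM (10.5 to 17.1) in wild-type BMDCs. Slc35c2 fell also from 46.5 to 21.5 FPKM in Irf1-/- and from 33.9 to 16.4 FPKM in Irf3/7-/- BMDCs, and stood at 59.2 and 50 FPKM in Tmem173-/- BMDCs. The other 13 were not called in wild-type BMDCs.

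Among the 13 members of the ion and pH class, Slc24a6, a sodium and calcium exchanger of mitochondria, rose in wild-type BMDCs from 12.7 to 26.9 FPKM and the sodium and bicarbonate cotransporter Slc4a7 fell from 13.4 to 6.43 FPKM. The scaffold gene Slc9a3r1 went from 56.8 to 108 FPKM in wild-type and from 58.0 to 116 FPKM in Irf3/7-/- without a call, and rose from 46.5 to 105 FPKM in Irf1-/- BMDCs, with log2 changes of 0.93, 0.99 and 1.18. The group of 6 lipid precursor carriers contained Slc27a3, an acyl-CoA synthetase and fatty acid transport protein. It fell from 17.2 FPKM (12.7 to 21.6) to 5.30 FPKM (3.72 to 6.86) in wild-type and from 43.8 to 12.5 FPKM in Irf1-/-, went from 15.7 to 8.93 FPKM in Irf3/7-/- without a call, and stood at 43.9 and 33.7 FPKM in Tmem173-/- BMDCs. Untreated Irf1-/- and Tmem173-/- BMDCs thus had nearly the same level, above that of untreated wild-type BMDCs. The choline transporter Slc44a1 was at 7.11 and 12.5 FPKM in Tmem173-/- and between 2.84 and 4.80 FPKM in the other genotypes, and Slc33a1, which carries acetyl-CoA into the endoplasmic reticulum, rose in Irf1-/- BMDCs from 25.1 to 50.6 FPKM.

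Treated knockouts were compared with treated wild-type BMDCs to see which of these levels depended on the genotype. These comparisons share the treated wild-type values with the wild-type response, so their lists are not independent of it. In treated Tmem173-/- BMDCs, 16 of 135 members were higher and 16 lower, beside 12.9% and 13.5% of all genes. The highest were Slc27a3 (log2 2.65), Slc39a10 (2.46), Slc16a1 (2.42), Slc25a24 (2.32), Slc1a5 (2.14) and Slc44a1 (2.09), and the lowest were Slc39a2 (-3.70), Slc28a2 (-3.50), Slc39a8 (-2.42), Slc30a4 (-2.40), Slc25a22 (-2.22) and Slc37a1 (-1.83). In treated Irf1-/- BMDCs, 5 of 136 members were higher and 9 lower, beside 2.65% and 4.91% of all genes. Slc25a24 (1.58), Slc28a3 (1.23), Slc27a3 (1.22), Slc39a10 (1.15) and Slc39a8 (1.14) were higher, and Slc25a37 (-2.07), Slc28a2 (-1.92), Slc6a12 (-1.82), Slc16a3 (-1.54), Slc39a4 (-1.18) and the GABA transporter Slc6a13 (-1.18) were lowest, followed by Slc43a3, Slc31a1 and Slc38a6. From Slc25a37 to Slc6a13, the differences before treatment were 0.15, -1.84 (under 1 FPKM, not tested), -0.82, -0.23, -0.98 and -0.70 in the same order, none of them called. In the BMDCs labelled as treated Irf3/7-/-, where Irf3 itself was not below the wild-type value, 5 of 135 members were higher and 2 lower, beside 4.61% and 2.69% of all genes. Slc2a3 (1.52), Slc22a4 (1.35), Slc16a6, a monocarboxylate transporter (1.14), Slc19a2 (1.09) and Slc16a1 (1.08) were higher, and Slc39a8 (-1.41) and the riboflavin transporter Slc52a3 (-1.19) were lower. Slc39a8, Slc22a4 and Slc28a2 were members only through treated Irf1-/-, treated Irf3/7-/- and treated wild-type BMDCs, in this order. Their differences in the treated comparisons thus came partly with the choice of members. The summed T and NK cell genes were at 0.995 FPKM in treated Tmem173-/-, 30.8 in treated Irf1-/- and 2300 in treated Irf3/7-/-, against 710 FPKM in treated wild-type BMDCs, and summed neutrophil genes at 14564, 1431 and 1456 against 1914 FPKM. In treated Tmem173-/- BMDCs, 8 of 9 neutrophil, 6 of 9 macrophage, 3 B cell and 2 dendritic cell genes were called higher, and 7 of 10 T and NK cell, 4 dendritic cell, 3 eosinophil and 1 macrophage gene lower. In treated Irf1-/- BMDCs, 7 T and NK cell, 5 macrophage, 4 dendritic cell, 3 eosinophil and 3 neutrophil genes were lower, and 3 neutrophil, 1 macrophage and 1 eosinophil gene higher. In treated Irf3/7-/- BMDCs, 7 T and NK cell genes and all 7 basophil and mast cell genes were higher, and 2 neutrophil, 1 macrophage and 1 dendritic cell gene were called in each direction. Of the erythroid genes, 1 was lower in treated Tmem173-/- and 1 higher in both treated Irf1-/- and treated Irf3/7-/- BMDCs. Of the basophil and mast cell genes, 1 was higher and 1 lower in treated Tmem173-/-, and 1 was higher in treated Irf1-/- BMDCs. In treated Irf3/7-/- BMDCs, 1 B cell and 1 eosinophil gene were also higher. The part of all these genes in the differences was not tested.

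Before treatment the genotypes differed less. In untreated Tmem173-/- against untreated wild-type BMDCs, 8 of 134 members were higher and 4 lower, beside 5.04% and 5.95% of all genes. Slc6a4 (log2 2.55), Slc22a4 (1.99), Slc6a12 (1.69), Slc43a2 (1.38), Slc27a3 (1.35) and Slc44a1 (1.30) led the higher ones, with Slc25a37 and the aromatic amino acid transporter Slc16a10 behind them. Slc28a3 (-4.54), Slc30a4 (-3.0), the potassium and chloride cotransporter Slc12a7 (-1.26) and Slc37a1 (-1.15) were lower. Slc28a3 was a member only through untreated wild-type BMDCs, so its lower values in the untreated knockouts came partly with the choice of members. Summed neutrophil genes stood at 20047 against 4092 FPKM in this comparison, and 7 of the 9 were called higher and 1 lower. Summed macrophage genes stood at 424 against 184 FPKM, with 3 of 9 higher, and 8 of the 10 T and NK cell genes were lower. All 4 eosinophil genes and 1 erythroid gene were lower, 3 of 5 B cell genes were higher, and 1 dendritic cell gene was higher and 2 were lower. Their part was not tested. In untreated Irf1-/- BMDCs, Slc27a3 (1.34) and Slc6a8 (1.21) were higher and Slc28a3 (-1.20) was lower out of 132 members, beside 1.26% and 3.52% of all genes. In the same comparison, 8 T and NK cell, 5 macrophage and 3 eosinophil genes were lower, 1 neutrophil gene was higher and 1 lower, 4 dendritic cell genes were lower and 1 higher, and 1 B cell gene was higher. Their part was not tested. In untreated Irf3/7-/- BMDCs, none of 134 members was called, beside 1.17% higher and 0.863% lower among all genes, and by the fold change alone the count was also 0. The most extreme members there were Slc6a8 (0.75) and Slc28a3 (-0.99). In that comparison, 6 of 7 basophil and mast cell genes and 1 T and NK cell gene were higher. Lower were 2 macrophage and 2 eosinophil genes, and 1 neutrophil gene was called in each direction.

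**Figure D4:**
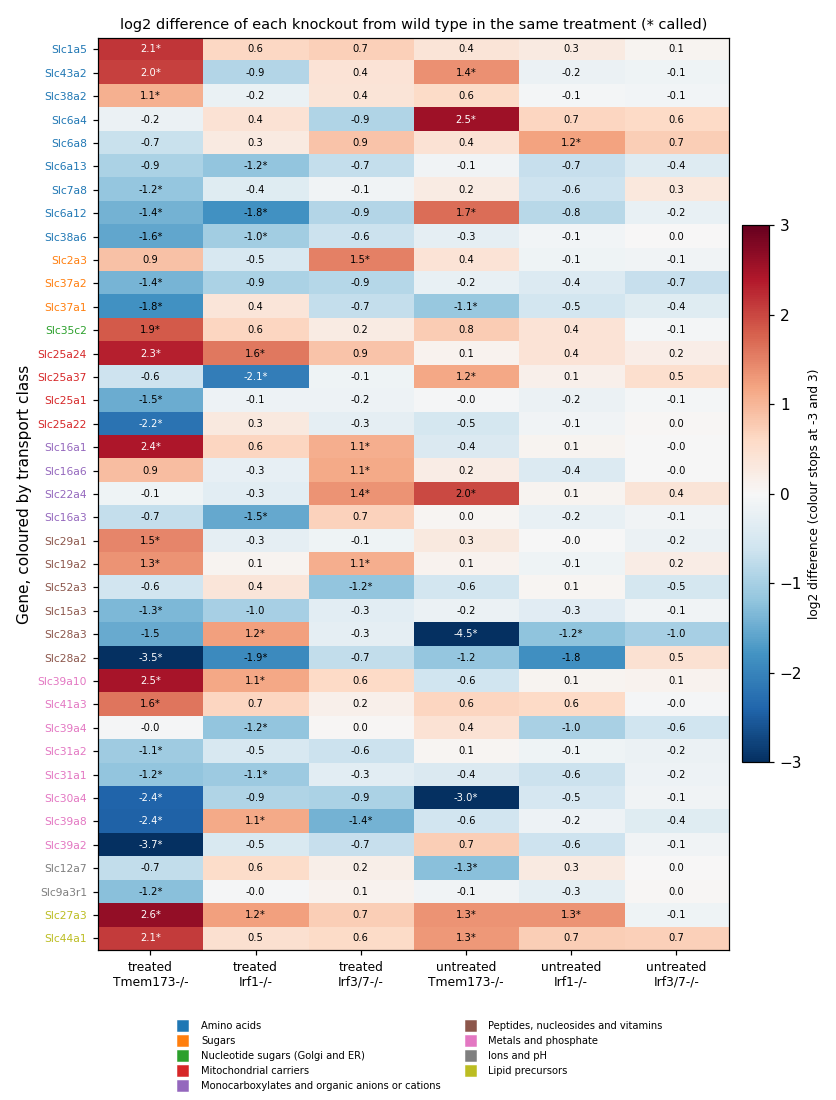
Difference of log2(FPKM + 0.1) between each knockout and wild-type BMDCs of the same treatment, for solute carrier genes named by the rule for named genes and called in at least 1 of the 6 comparisons, with called values starred. The treated Tmem173-/- column holds the most called values and the untreated Irf3/7-/- column holds none.

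**Figure D5:**
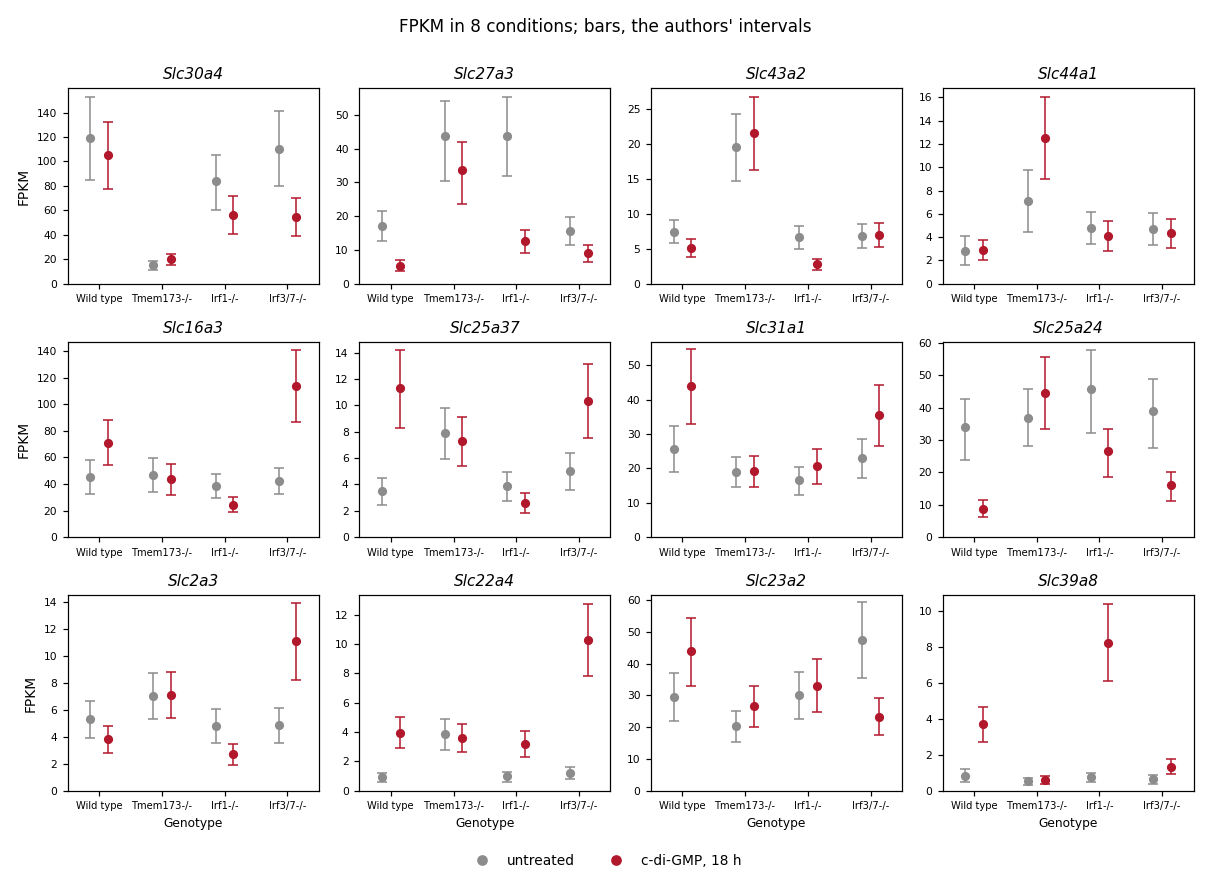
FPKM in the 8 conditions for 12 solute carrier genes with differences between genotypes, untreated in grey and treated in red, with bars for the authors' intervals and y axes that start at 0. Slc30a4 is low in both Tmem173-/- conditions, Slc2a3 and Slc16a3 are highest in treated Irf3/7-/- BMDCs, and Slc39a8 is highest in treated Irf1-/- BMDCs. Slc39a8 was a member only through treated Irf1-/- BMDCs, and Slc22a4 only through treated Irf3/7-/- BMDCs.

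Promoter sequence was examined for letters of elements that STING signalling is known to act through, since IRF3, IRF7 and IRF1 bind interferon-stimulated response elements and STING also activates NF-kB. RefSeq promoter windows on GRCm38.p6 were found for 106 of the 136 members, 148 windows in all, and the 250 bases before each start were searched on both strands. The letters GAAANNGAAA (ISRE) were present in 2 members, Slc25a22 and Slc37a1, which is 1.89% of members against 3.46% of all genes with a window. The letters TTCNNNGAA, to which STAT factors bind, were present in 6 members (5.66% against 8.13%), and the letters TGATGNAA, to which ATF4 binds, in 2 members (1.89% against 3.91%). The NF-kB consensus was present in 10 members (9.43% against 4.46%). Of the 10, Slc25a1 and Slc6a12 rose and Slc29a1 fell in wild-type BMDCs. These shares count a gene with a match in any of its windows, and all 27025 genes had 32851 windows. The shares were thus not matched for windows per gene, and their differences were not tested. A match is a description of the sequence and not a binding site. The stretches are shown for the only 2 members with ISRE letters and for the 3 members with NF-kB letters that were called in wild-type BMDCs, 5′ to 3′ on the strand of the gene, with the match in capitals.
Slc25a22 (ISRE, minus strand, chr7:141435435-141435464): agcccaaaatGAAAGAGAAAgtcctccccc
Slc37a1 (ISRE, plus strand, chr17:31296177-31296206): acagggccggGAAAGTGAAAgggcggccgc
Slc25a1 (NF-kB, minus strand, chr16:17928360-17928389): cgcctccggcGGGGTTCTCCgtctccccgg
Slc29a1 (NF-kB, minus strand, chr17:45595269-45595298): tctgggtaggGGGACTCTCCttttgtgggg
Slc6a12 (NF-kB, plus strand, chr6:121342431-121342460): gacttctctaGGAAAATCCCaaggagaagg
Distances were counted to the RefSeq start of the window that holds the match. This was 1 of 3 windows of Slc25a22, 1 of 8 of Slc29a1 and 1 of 5 of Slc6a12, while Slc37a1 has 1 window. For Slc25a22, Slc29a1 and Slc37a1 the start lay within the locus of the deposited table but was not its outermost start. For Slc6a12 the start lay upstream of that locus, which begins at chr6:121346697. The ISRE letters began 79 bases before the RefSeq start in Slc25a22 and 37 bases before it in Slc37a1, where the latter stretch also lies in annotated exons of Slc37a1 and AC154652.2. Slc25a22 rose in all 3 responders and Slc37a1 in Irf1-/- BMDCs. The NF-kB letters began 160 bases before the RefSeq start in Slc25a1, 42 bases in Slc29a1 and 133 bases in Slc6a12.

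Other genes of membrane transport were read from fixed lists. Of 27 ABC transporters tested, 2 rose and 3 fell in wild-type BMDCs, and their median log2 change was -0.34. The exporter of cyclic nucleotides Abcc5 rose from 6.19 to 22.1 FPKM, and Abce1, a factor of ribosome recycling that is no transporter, fell from 48.4 to 18.6 FPKM. Of 19 V-ATPase genes, which acidify endosomes and lysosomes, 2 rose and none fell, with a median of 0.38. Of 21 carriers under other symbols, 3 rose and 2 fell. Slco3a1, an organic anion transporter, rose from 11.7 to 51.1 FPKM, and the mitochondrial carrier Ucp2 fell from 159 to 45.4 FPKM. None of the 6 partner proteins of carriers was called. Of the 224 Slc genes under 5 FPKM, 46 were tested, 6 rose and 8 fell. Over all genes tested in wild-type BMDCs, 10.5% rose and 9.96% fell. In Tmem173-/- BMDCs, no gene of these lists was called. Of the carriers that have been linked to the import of cyclic dinucleotides, Slc19a1 was left out by name, with 6.58 FPKM in untreated and 0.784 FPKM in treated wild-type BMDCs. Slc46a1 stood at no more than 0.956 FPKM and Slc46a3 at 3.92 FPKM in untreated and 0.826 FPKM in treated wild-type BMDCs.

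Some loci overlap another gene, and while the libraries were stranded and the study describes a stranded setting for its analysis in SeqMonk, no such setting is stated for the deposited Cuffdiff table. This applied to 11 members. Slc18a1, from 1.64 to 10.4 FPKM, overlaps Atp6v1b2 at 233 to 367 FPKM, and Slc7a7 overlaps Oxa1l at 15.6 to 21.7 FPKM, so reads of the members and of these neighbours may not be separable. Neither gene was called in any comparison. Slc15a3 overlaps Tmem132a, which stood at 4.88 to 8.53 FPKM and did not follow its rise, with 8.46 FPKM in untreated and 8.14 FPKM in treated wild-type BMDCs.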

How the data were processed

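RNA-seq of 16 samples, 2 per condition, was deposited by the authors as 1 table of FPKM values from Cuffdiff (version 1.06 per the labels), each with the bounds of an interval and a status, for 8 conditions. Libraries were stranded, and a stranded setting is described for SeqMonk but not for Cuffdiff. Aligner and annotation: not given in the sources used here. Labels name an earlier mouse build, but coordinates match GRCm38: 21454 of 21681 loci overlap the GENCODE M21 gene of the same name, as do those of 135 of 135 members it names. The 4 columns of 1 further condition were not used. FPKM gives no depth, and without values per replicate no p-value, SD or leave-one-out could be computed.

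A pseudocount of 0.1 FPKM was added and calls were made over all genes (minimum 1 FPKM, fold change over 2, intervals that do not overlap, status OK). The 10 comparisons were 4 responses and 6 of a knockout with wild type. Members and gene lists were chosen with earlier results of these data known. Genes named were the 10 highest members, up to 15 rises and falls in wild-type BMDCs, up to 6 of each in knockout comparisons, carriers of textbook interest and those at the threshold. The others, such as Slc22a23, were chosen after their values were seen, and 1 member is counted but its values are not reported here. The class of a member followed its family number. Alternative settings were pseudocounts of 0.01 and 1 FPKM, no minimum, a fold change over 1.5, median centring, fold change alone and members of at least 10 FPKM. Python 3.11.15, numpy 2.4.6, pandas 2.3.3 and matplotlib 3.10.9 were used.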

Additional observations from a re-analysis of the deposited data

Results flagged for a closer look

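Slc2a3, the glucose transporter GLUT3, moved in opposite directions with c-di-GMP in 2 knockouts. The log2 change was 1.17 in Irf3/7-/- BMDCs, from 4.86 to 11.1 FPKM, and -0.81 in Irf1-/- BMDCs, from 4.80 to 2.70 FPKM, and in both the authors' intervals of untreated and treated cells did not overlap. The difference between the responses was not tested, since each condition has a single pooled value. Wild-type BMDCs went from 5.28 to 3.80 FPKM without a call.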

How the results depend on the processing

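No paired analysis was possible because the deposited table holds 1 pooled value per condition, and leaving out a replicate was not run for the same reason. A fold change over 1.5 in place of 2 raised the count of members called to 41 in the Irf3/7-/- response (24 with the fold of 2), to 52 in treated Tmem173-/- (32), to 16 in treated Irf3/7-/- (7), with 6 higher and 10 lower in place of 5 and 2, to 19 in untreated Tmem173-/- (12) and to 2 in untreated Irf3/7-/- BMDCs (0), the last 4 against wild-type BMDCs of the same treatment. In untreated Irf1-/- BMDCs the count was 1 in place of 3 with a pseudocount of 1 FPKM and also 1 with members of at least 10 FPKM, and in untreated Irf3/7-/- BMDCs it was 1 in place of 0 with a pseudocount of 0.01 FPKM. The other counts stayed within 1.5 times those given, and no Tmem173-/- response appeared under any of the 7 alternatives. Of 129 called values of named genes, 19 were lost under at least 1 alternative and none changed sign; a pseudocount of 1 FPKM lost 19, among them Slc19a2, Slc31a2, Slc41a3, Slc4a7 and Slc6a8 in wild-type BMDCs, and median centring lost 2, Slc25a5 in Irf3/7-/- and Slc41a3 in wild-type BMDCs. Precision is limited by the authors' intervals, which cannot be checked against replicates.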
